A study of Mus musculus with 6 samples.

Results

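Interferon-stimulated genes are the genes that a cell switches on when an interferon binds its receptor. Of the 37384 gene symbols in the count table, 37 such genes were followed here, chosen by symbol from a fixed list, and all 37 were found. They comprise transcription factors, nucleic acid sensors, antiviral effectors, oligoadenylate synthetases, the ISG15 system with its ubiquitin ligases and PARPs, interferon-inducible GTPases, and parts of the antigen processing machinery. RNA came from adipocytes of inguinal subcutaneous white adipose tissue (scWAT) of male mice at postnatal day 7 (P7), in 3 L1L2-FF libraries and 3 L1L2-AKO libraries. L1L2-FF mice were *Lats1* f/f *Lats2* f/f littermate controls without Cre, and L1L2-AKO mice carried the same floxed alleles together with *Adipoq*Cre. Both floxed lines were obtained on mixed strain backgrounds. The fat was digested with collagenase and the cells that floated were collected. Each library was a biological replicate made from a pool of 4 mice, so differences between single animals cannot be seen. The *Adipoq* promoter drives Cre in adipocytes, and the paper cites its expression in some adipocyte precursors of fetal scWAT. Other cells that came along with the floated adipocytes also gave RNA to the library. Those that never expressed Cre kept their *Lats1* and *Lats2*. The comparison asks how the interferon-stimulated genes of this adipocyte preparation differ when both Hippo kinases are deleted in adipocytes.

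Type I interferons (the IFN-α family and IFN-β) bind IFNAR1 and IFNAR2 and act through the kinases JAK1 and TYK2. They lead to a complex with STAT2 and IRF9 that binds the interferon-stimulated response element (ISRE). Type II interferon (IFN-γ) binds IFNGR1 and IFNGR2 and acts at the gamma-activated site (GAS), and IRF1, itself a GAS target, extends that response. Many of these genes also have a basal level in unstimulated cells, and several (IRF1 among them) respond to other signals as well. White adipocytes carry the receptors of both interferon types.

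The 37 genes did not move together between the genotypes. Levels are given as CPM (counts scaled to a common library size) after TMM normalization, and genotypes were compared with the two-sided quasi-likelihood test of edgeR. Its p-values were adjusted by the Benjamini-Hochberg method across all 15674 genes that were tested, and the threshold was 0.05. All 37 genes passed the filter on low counts. In the libraries labelled L1L2-AKO, 6 rose (*Oas2*, *Zbp1*, *Oas1a*, *Ifit2*, *Ifit1* and *Parp9*), 2 fell (*Irf1* and *Ifi27l2a*) and 29 did not pass the threshold. The number that rose was 3 without L1L2-FF replicate 1 or 3 or L1L2-AKO replicate 1 or 2, and the number that fell was 1 without L1L2-FF replicate 1 or any one of the L1L2-AKO libraries. The 8 genes that passed make 21.6% of the list, against 16.5% of all genes tested, with 9.28% of all genes higher and 7.18% lower. The libraries of the genotypes did not overlap for 16 of the 37 genes (43.2%, 10 higher and 6 lower), against 36.4% of all genes tested. The median log2 fold change was 0.15 over the 37 genes and -0.02 over all genes tested, and the median absolute log2 fold change was 0.329 against 0.285. Both shares were thus near those of the whole table, and the changes that did pass were spread over 5 of the 7 roles.

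**Figure D1:**
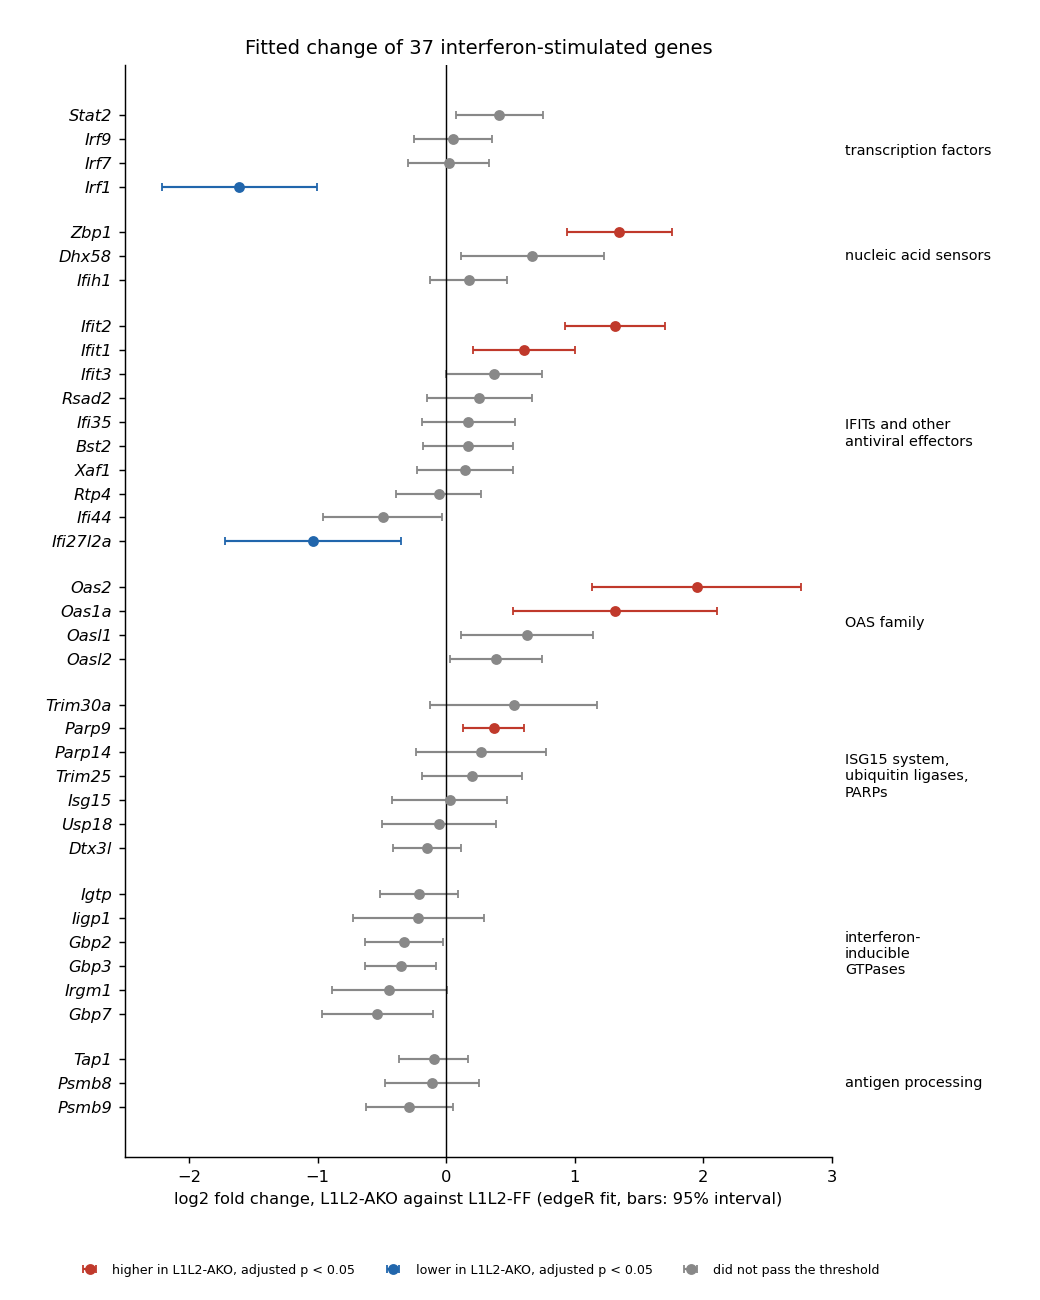
Fitted log2 fold change of each of the 37 genes in the libraries labelled L1L2-AKO against L1L2-FF (x axis), with the 95% interval of the edgeR fit as bars, grouped by role (y axis). The 6 genes that rose and the 2 that fell are coloured; the grey points are the 29 genes that did not pass the threshold, and all 6 GTPases lie left of 0 while all 4 genes of the OAS family lie right of it.

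Total counts ranged from 30548473 to 32107917 per library. The labels were checked on the targeted genes. *Lats1* was at 76.1, 94.3 and 78.4 CPM in the L1L2-FF libraries and at 38.9, 41.2 and 40.5 CPM in those labelled L1L2-AKO (log2 fold change -1.04, edgeR adjusted p = 0.00131). *Lats2* went against its label, at 74.9, 85.7 and 68.5 CPM in L1L2-FF and 96.2, 126 and 135 CPM in the libraries labelled L1L2-AKO (log2 fold change 0.64, edgeR adjusted p = 0.0278). This change of *Lats2* missed the threshold in 4 of the 6 fits with a library left out (edgeR adjusted p up to 0.104). A count per gene also takes reads from exons outside the deleted stretch, so it is a weak check of the deletion. In a separate mRNA measurement, the paper reported a reduction of both *Lats1* and *Lats2* in adipocytes isolated from P7 L1L2-AKO scWAT. Of 18 macrophage markers, 17 rose with the label L1L2-AKO (median log2 fold change 1.57). Their summed level was 321 to 615 CPM in L1L2-FF and 1180 to 1310 CPM in L1L2-AKO, and none of the 18 was at 0. Adipocyte markers summed to between 32200 and 37800 CPM in L1L2-FF and between 28200 and 37500 CPM in L1L2-AKO, and the lowest level of any of the 13 in any library was 49.8 CPM. Although these sums overlapped, 10 of the 13 were fitted lower in L1L2-AKO, 5 of them past the threshold (median log2 fold change -0.59). In such bulk libraries fewer cells of a type and less RNA per cell cannot be told apart, and the part of the macrophages in the changes below was not tested.

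The promoters of the genes are shown next because the ISRE and the GAS tie these genes to the interferon pathway. RefSeq promoters (GRCm38.p6, 250 bases before to 50 bases after the start of each gene) could be matched for 28 of the 37 genes. A gene with more than one listed start was counted once, as holding an element if any of its windows did. An ISRE, written GAAANNGAAA and searched on both strands, was in 14 of the 28 (50%), against 3.99% of the 27025 genes with windows of the same length. A GAS, written TTCNNNGAA (the same on both strands), was in 8 of the 28 (28.6%), against 9.55% of the genes. CATTCC, the core of the MCAT element that TEAD factors bind, was in 3 of the 28 (10.7%), against 16.6%. The last letters of CATTCC can open a GAS match, so these patterns can share bases. A match is only a match of letters, and a promoter without one may hold a variant of the element.

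The stretches below lie just before the start, on the strand of the gene and 5′ to 3′, with ISRE and GAS matches in capitals. They show the genes with a matched promoter that rose (*Ifit1*, *Ifit2* and *Oas1a*), the transcription factor gene that fell (*Irf1*), and, for contrast, 2 genes with the same elements that did not pass the threshold (*Isg15* and *Gbp7*).
Ifit1 (chr19:34640759-34640888, plus strand): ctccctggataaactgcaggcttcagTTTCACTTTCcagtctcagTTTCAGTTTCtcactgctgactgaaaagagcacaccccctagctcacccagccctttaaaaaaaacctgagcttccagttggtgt
Ifit2 (chr19:34550444-34550693, plus strand): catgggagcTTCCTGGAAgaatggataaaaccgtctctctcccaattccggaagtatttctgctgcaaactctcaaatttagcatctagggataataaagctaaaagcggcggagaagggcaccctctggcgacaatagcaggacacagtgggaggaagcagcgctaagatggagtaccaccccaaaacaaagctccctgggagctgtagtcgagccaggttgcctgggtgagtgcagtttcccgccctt
Oas1a (chr5:120907526-120907655, minus strand): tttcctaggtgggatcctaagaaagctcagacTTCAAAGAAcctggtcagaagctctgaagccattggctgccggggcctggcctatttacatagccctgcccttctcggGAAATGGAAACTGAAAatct
Irf1 (chr11:53769884-53770013, plus strand): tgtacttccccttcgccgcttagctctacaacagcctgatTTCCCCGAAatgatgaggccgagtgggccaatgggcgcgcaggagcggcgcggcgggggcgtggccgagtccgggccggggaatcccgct
Isg15 (chr4:156200819-156200948, minus strand): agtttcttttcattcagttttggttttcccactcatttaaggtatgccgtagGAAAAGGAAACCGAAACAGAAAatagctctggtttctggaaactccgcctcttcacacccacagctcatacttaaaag
Gbp7 (chr3:142530206-142530335, plus strand): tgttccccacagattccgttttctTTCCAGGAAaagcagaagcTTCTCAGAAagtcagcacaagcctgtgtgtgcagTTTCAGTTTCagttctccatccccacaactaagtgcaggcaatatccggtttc

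Both elements were found in genes that rose and in genes that did not pass the threshold. An ISRE was in 2 of the 3 matched genes that rose, in 0 of 1 that fell and in 12 of the 24 that did not pass the threshold. A GAS was in 2 of 3, 1 of 1 and 5 of 24. *Isg15*, with its run of 3 overlapping ISRE matches from 78 bases before the start, did not pass the threshold, whereas *Oas1a*, with 2 overlapping matches from 20 bases before the start, rose. *Irf1* has no ISRE match in this window and 1 GAS match, TTCCCCGAA, 90 bases before the start. The numbers per class are small, and no test was made.

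Among the transcription factors the clearest change was a fall of *Irf1*, the factor that carries the IFN-γ response onward to antigen presentation genes and GBPs. *Irf1* (chromosome 11 of mm10, 53770014 to 53778374, plus strand) was at 219, 282 and 139 CPM in the L1L2-FF libraries and at 78.2, 76.7 and 54.9 CPM in those labelled L1L2-AKO. Every L1L2-AKO library lay below every L1L2-FF library, and the spread within L1L2-FF was wide. The genotypes averaged 213 ± 71.4 CPM and 69.9 ± 13.0 CPM (mean ± SD, n = 3 each), so L1L2-AKO was 3.05-fold lower (log2 fold change -1.61, standard error (SE) of the log2 fold change 0.261, edgeR adjusted p = 0.00557). When single libraries were left out, the log2 fold change lay between -1.84 and -1.36, with an edgeR adjusted p of at most 0.0268. *Irf1* is itself induced rapidly by cytokines and other signals, and immediate-early and stress genes moved with it: 6 of 10 fell (median log2 fold change -0.96), and their summed level was 4190 to 7080 CPM in L1L2-FF and 2720 to 2930 CPM in L1L2-AKO. Whether these changes and that of *Irf1* are linked was not tested.

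The other transcription factors of the list did not pass the threshold. *Irf9*, the DNA-binding part of the type I complex, had a log2 fold change of 0.05 (95% interval -0.25 to 0.36), and *Irf7*, the factor that amplifies type I interferon production, one of 0.02 (95% interval -0.30 to 0.33). *Stat2*, which codes for the partner of IRF9 in the type I complex, was at 28.4, 33.4 and 25.7 CPM in L1L2-FF and 39.6, 43.7 and 33.2 CPM in L1L2-AKO, with a log2 fold change of 0.41 (edgeR adjusted p = 0.0973). Its genotypes overlapped by 1 pair of libraries.

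Of the nucleic acid sensors, *Zbp1*, whose protein binds left-handed RNA and DNA and can set off necroptosis, rose. Its level was 3.86, 4.14 and 4.13 CPM in L1L2-FF and 8.90, 10.1 and 11.9 CPM in the libraries labelled L1L2-AKO. The L1L2-FF libraries were almost alike, and the lowest L1L2-AKO library stood far above them. The change was 2.54-fold (log2 fold change 1.35, SE 0.178, edgeR adjusted p = 0.00236). *Zbp1* lies on chromosome 2 of mm10 (173206612 to 173218923, minus strand) and shares no 50-base stretch with another gene. The RIG-I-like receptors did not pass the threshold. *Dhx58*, which codes for LGP2, was at 6.35, 3.62 and 4.22 CPM in L1L2-FF and 8.39, 6.72 and 7.47 CPM in L1L2-AKO, without overlap (log2 fold change 0.67, 95% interval 0.11 to 1.23). *Ifih1*, which codes for the long double-stranded RNA sensor MDA5, had a log2 fold change of 0.17 (95% interval -0.13 to 0.47).

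Oligoadenylate synthetases sense double-stranded RNA and activate RNase L. Their family, OAS-like genes included, was the only role in which all members were fitted higher and no member overlapped between genotypes. *Oas2* had the largest fitted change of the 37 genes. It was at 1.76, 3.03 and 1.13 CPM in L1L2-FF and at 8.78, 8.02 and 6.07 CPM in the libraries labelled L1L2-AKO, 3.86-fold higher (95% interval 2.20-fold to 6.79-fold, log2 fold change 1.95, SE 0.354, edgeR adjusted p = 0.00878). These levels rest on counts of 35 to 98 in L1L2-FF and of 174 to 291 in L1L2-AKO, so that *Oas2* was among the 4 members with a count under 100 in some library. *Oas1a* was at 1.63, 2.44 and 1.13 CPM in L1L2-FF and 4.83, 5.11 and 3.00 CPM in L1L2-AKO. It was thus low as well, and its lowest L1L2-AKO library lay close to its highest L1L2-FF library. Its log2 fold change was 1.31 (SE 0.346, edgeR adjusted p = 0.0370), which passed the threshold in 2 of the 6 fits with a library left out (edgeR adjusted p up to 0.131, without L1L2-AKO replicate 2). Because 57.6% of the 50-base stretches of *Oas1a* also occur in other transcripts, mostly those of its neighbour *Oas1g*, its reads may be split between the copies and its value is uncertain.

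*Oasl1* and *Oasl2*, the OAS-like genes, were higher in each L1L2-AKO library than in any L1L2-FF library, but did not pass the threshold. *Oasl1* was at 2.14, 2.91 and 2.45 CPM in L1L2-FF and 3.47, 4.19 and 3.95 CPM in L1L2-AKO (log2 fold change 0.63, edgeR adjusted p = 0.0957). *Oasl2* had a log2 fold change of 0.39 (95% interval 0.03 to 0.74, edgeR adjusted p = 0.136). *Oas2* lies at 120730333 to 120749853 and *Oas1a* at 120896256 to 120907521 of chromosome 5 (both minus strand, mm10), with *Oasl1* and *Oasl2* on the same chromosome.

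**Figure D2:**
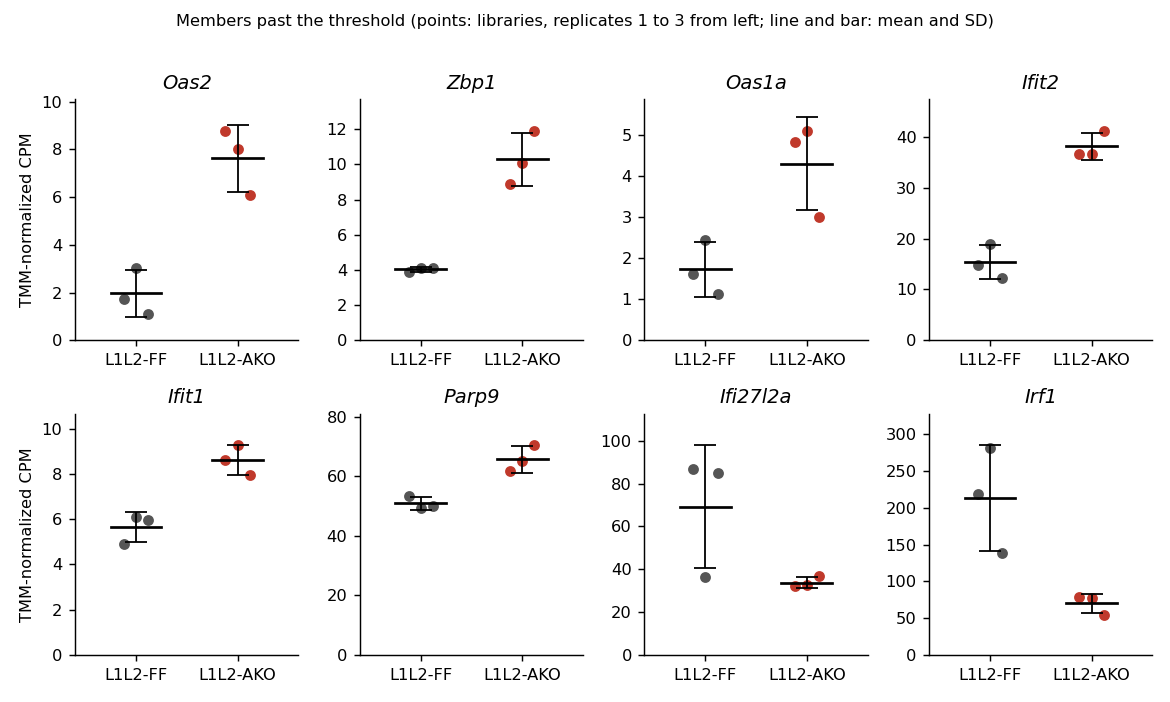
TMM-normalized CPM (y axis, starting at 0) of the 8 genes that passed the threshold in each library (points, replicates 1 to 3 from the left), with the mean and SD of each genotype. The genotypes separate in 7 of the panels; in the panel of *Ifi27l2a*, L1L2-FF replicate 2 (36.3 CPM) lies within the L1L2-AKO libraries.

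Among the antiviral effectors, *Ifit1* and *Ifit2* rose, *Ifi27l2a* fell and the other 7 did not pass the threshold. IFIT proteins bind viral RNA and hinder its translation. *Ifit2* was at 14.8, 18.9 and 12.3 CPM in L1L2-FF and 36.6, 36.6 and 41.1 CPM in the libraries labelled L1L2-AKO, a clear separation. The change was 2.48-fold (95% interval 1.90-fold to 3.25-fold, log2 fold change 1.31, SE 0.169, edgeR adjusted p = 0.00220). *Ifit2* (chromosome 19 of mm10, 34550694 to 34576419, plus strand) passed the threshold in all 6 fits with a library left out. *Ifit1* was at 4.92, 6.09 and 5.96 CPM in L1L2-FF and 8.60, 9.26 and 7.96 CPM in L1L2-AKO. The genotypes did not overlap, but the change was smaller, with a log2 fold change of 0.61 (SE 0.171, edgeR adjusted p = 0.0472), and it passed the threshold in only 1 of the 6 fits with a library left out (edgeR adjusted p up to 0.168, without L1L2-FF replicate 1). *Ifit3* did not pass (log2 fold change 0.37, 95% interval -0.00147 to 0.74), and 51.2% of its 50-base stretches are shared, mostly with *Ifit3b*. The neighbouring genes *Ifit1*, *Ifit2* and *Ifit3* thus had unequal fitted changes. The difference between them was not tested.

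*Ifi27l2a*, a small gene of the IFI27 family, went the other way from the IFIT genes. It was at 86.6, 36.3 and 84.9 CPM in L1L2-FF and at 32.2, 32.5 and 36.7 CPM in L1L2-AKO. L1L2-FF replicate 2 was at the level of the L1L2-AKO libraries, so the genotypes overlapped. The log2 fold change was -1.04 (SE 0.297, edgeR adjusted p = 0.0494). The gene passed the threshold in 1 of the 6 fits with a library left out, the one without L1L2-FF replicate 2 (log2 fold change -1.34, edgeR adjusted p = 0.000692). Per kilobase of exon *Ifi27l2a* was the most abundant of the 37 genes in both genotypes, at 150 CPM per kb in L1L2-FF and 73.0 CPM per kb in L1L2-AKO.

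The other effectors did not pass the threshold. *Bst2*, which codes for tetherin and holds budding virus particles at the cell surface, was next to *Ifi27l2a* among the abundant members in L1L2-AKO, at 51.8 CPM per kb of exon. It was at 44.8, 38.0 and 42.2 CPM in L1L2-FF and 54.9, 47.5 and 37.8 CPM in L1L2-AKO, which overlap (log2 fold change 0.17, 95% interval -0.18 to 0.52). *Rsad2*, which codes for viperin, had a log2 fold change of 0.26 (95% interval -0.15 to 0.67), *Ifi35* one of 0.17, *Xaf1* one of 0.15 and *Rtp4* one of -0.06. *Ifi44* was without overlap and fitted lower, with a log2 fold change of -0.50 (95% interval -0.96 to -0.03, edgeR adjusted p = 0.137).

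*Isg15* and *Usp18* did not pass the threshold, and their fitted changes were small. ISG15 is a ubiquitin-like protein that is joined to other proteins during the response, and its gene is among the usual readouts of type I interferon. *Isg15* (chromosome 4 of mm10, 156199424 to 156200818, minus strand) was at 6.67, 7.58 and 6.96 CPM in L1L2-FF and at 8.21, 7.77 and 5.62 CPM in L1L2-AKO. The L1L2-AKO libraries lay on both sides of the L1L2-FF libraries, with a log2 fold change of 0.03 (95% interval -0.42 to 0.47). *Usp18*, whose protein removes ISG15 and dampens the type I receptor, had a log2 fold change of -0.06 (95% interval -0.50 to 0.39). These intervals leave room for changes of less than 1 on the log2 scale, as did those of 26 of the 29 genes that did not pass the threshold.

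Of the ubiquitin ligases and PARPs, *Parp9* alone passed the threshold. PARP9 works as a pair with the ubiquitin ligase DTX3L, and their genes lie head to head on chromosome 16. *Parp9* (35938470 to 35972605, plus strand, mm10) was at 53.5, 49.3 and 49.9 CPM in L1L2-FF and at 61.6, 65.0 and 70.4 CPM in the libraries labelled L1L2-AKO, without overlap. The change was 1.29-fold (log2 fold change 0.37, SE 0.104, edgeR adjusted p = 0.0472), and it passed the threshold in 0 of the 6 fits with a library left out (edgeR adjusted p up to 0.149). *Dtx3l* was at 29.1, 31.0 and 29.0 CPM in L1L2-FF and 28.5, 27.8 and 24.1 CPM in L1L2-AKO, lower without overlap (log2 fold change -0.15, 95% interval -0.41 to 0.12). The pair was thus fitted in opposite directions, a difference that was not tested. Exons of the 2 genes overlap on opposite strands over 9.40% of the exon length of *Parp9*, and reads there cannot be assigned without knowing whether strand was used in counting. *Parp14*, *Trim25* and *Trim30a* had log2 fold changes of 0.27, 0.20 and 0.52 and overlapped between genotypes.

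The interferon-inducible GTPases, which attack the vacuoles of intracellular pathogens, were fitted lower in all 6 cases. None passed edgeR's threshold, and DESeq2 and limma-voom called 0 of the 6. An unadjusted edgeR p under 0.05 was found for 3 of the 6, against 4828 of all 15674 genes tested. *Gbp2*, the most abundant of them per exon length (31.3 CPM per kb in L1L2-FF and 24.9 CPM per kb in L1L2-AKO), was at 82.6, 67.7 and 85.6 CPM in L1L2-FF and at 57.0, 60.9 and 69.9 CPM in L1L2-AKO. Only L1L2-FF replicate 2 fell among the L1L2-AKO libraries, and the log2 fold change was -0.33 (95% interval -0.64 to -0.02, edgeR adjusted p = 0.136). *Gbp7* was at 65.2, 67.3 and 41.4 CPM in L1L2-FF and at 42.2, 41.9 and 35.9 CPM in L1L2-AKO (log2 fold change -0.54, edgeR adjusted p = 0.0934). L1L2-FF replicate 3 was at the level of the L1L2-AKO libraries, and without it *Gbp7* passed the threshold (log2 fold change -0.73, edgeR adjusted p = 0.0115). *Gbp3* was lower without overlap (log2 fold change -0.35, 95% interval -0.63 to -0.08, edgeR adjusted p = 0.0806). The immunity-related GTPases *Irgm1*, *Iigp1* and *Igtp* had log2 fold changes of -0.44, -0.22 and -0.21, and among these 3 only *Igtp* did not overlap between genotypes.

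The 3 antigen processing genes were also fitted lower, with 0 past the threshold in edgeR, DESeq2 and limma-voom and 0 with an unadjusted p under it. *Psmb8* and *Psmb9* code for catalytic subunits of the immunoproteasome, and *Tap1* for a chain of the transporter that carries peptides to MHC class I. Their log2 fold changes were -0.11 for *Psmb8*, -0.29 for *Psmb9* (95% interval -0.62 to 0.05, no overlap) and -0.10 for *Tap1*. *Psmb9* and *Tap1* lie head to head on chromosome 17 and share exon sequence on opposite strands.

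**Figure D3:**
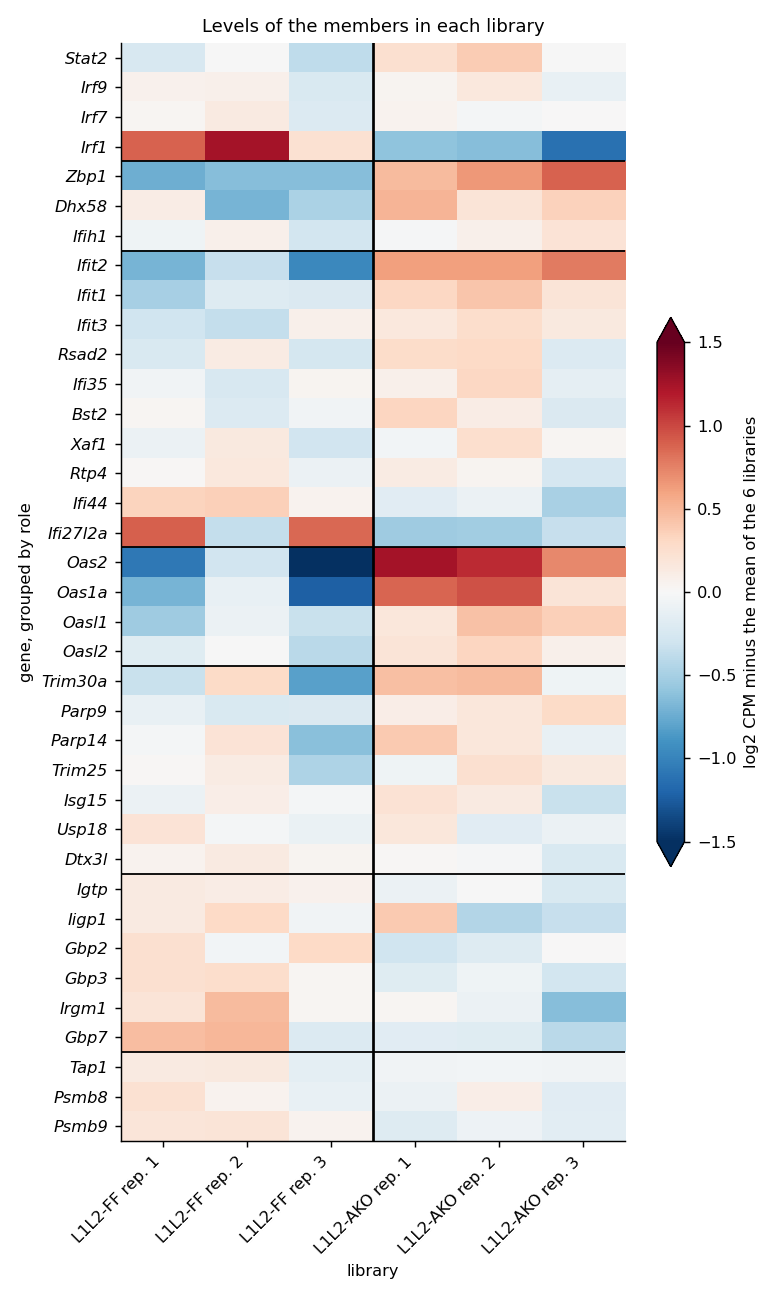
Level of each of the 37 genes (rows, grouped by role) in each of the 6 libraries (columns), as log2 CPM minus the mean of the gene over the 6 libraries. Blue turns to red from L1L2-FF to L1L2-AKO in the rows of *Zbp1*, *Ifit2* and the OAS family and the reverse holds for *Irf1*, while the column of L1L2-FF replicate 3 is lowest within its genotype for 26 of the 37 genes.

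The members also differed between libraries of one genotype. Within L1L2-FF, replicate 2 was highest for 27 of the 37 genes and replicate 3 lowest for 26, whereas over all genes tested replicate 2 was highest for 40.0% and replicate 3 lowest for 38.5%. The order replicate 2, 1, 3 from high to low was found for 23 of the 37 genes (62.2%), against 26.0% of all genes tested. The summed levels of 6 of 10 marker lists had the same order, macrophage markers (615, 422 and 321 CPM) and the immediate-early and stress genes (7080, 6150 and 4190 CPM) among them. Within L1L2-AKO, replicate 2 was highest for 18 of the 37 genes, against 28.0% of all genes tested. Replicate 3 of L1L2-AKO was lowest for 23 of the 37 genes, against 31.5% of all genes tested. The libraries that were high or low for these genes were therefore also set apart by other gene groups, and the part of cell makeup in this spread was not tested.

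The rest of the interferon pathway was examined with a list of 123 other genes, of which 119 were in the table and 105 were tested. In the libraries labelled L1L2-AKO 22 rose (21.0% of those tested, against 9.28% of all genes), 9 fell (8.57%, against 7.18%) and 74 did not pass. Their median log2 fold change was 0.12. The number that rose was 9 without L1L2-FF replicate 1, again 9 when L1L2-AKO replicate 3 was left out, and 8 when L1L2-AKO replicate 2 was. The number that fell was 5, 5 and 4 in these fits. Over all genes tested, 777, 844 and 814 rose in these fits, against 1455 in the main fit. In the same order 513, 530 and 467 fell, against 1125. The interferons themselves were close to absent: of 11 ligand genes in the table, 7 were at a count of 0 in all 6 libraries, and none passed the filter. *Ifnb1*, the gene of IFN-β, had no count in any library. *Ifng*, the gene of IFN-γ, had a count of 0 in all L1L2-FF libraries and counts of 2, 4 and 2 in the L1L2-AKO libraries, which is too near the floor of 3 counts for a fold. A count of 0 in a library allows up to 3 counts, and the interferon protein that reached these cells was not measured.

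Chains of the IFN-γ receptor rose, while those of the type I receptor did not pass the threshold. *Ifngr1*, the ligand-binding chain of the IFN-γ receptor, was at 134, 176 and 118 CPM in L1L2-FF and at 258, 342 and 416 CPM in the libraries labelled L1L2-AKO. Every L1L2-AKO library was above every L1L2-FF library (log2 fold change 1.25, SE 0.215, edgeR adjusted p = 0.00723). *Ifngr2*, its signalling chain, rose as well (log2 fold change 0.41, edgeR adjusted p = 0.0357), as did *Il10rb*, the chain shared by the IFN-λ and IL-10 receptors (log2 fold change 0.53, edgeR adjusted p = 0.0318). Of the type I receptor chains, *Ifnar1* had a log2 fold change of -0.20 (edgeR adjusted p = 0.229) and *Ifnar2* one of -0.15 (edgeR adjusted p = 0.486), and whether they differed from the IFN-γ receptor chains was not tested. *Ifnlr1*, the specific chain of the IFN-λ receptor, was at most at 0.322 CPM and was not tested.

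**Figure D4:**
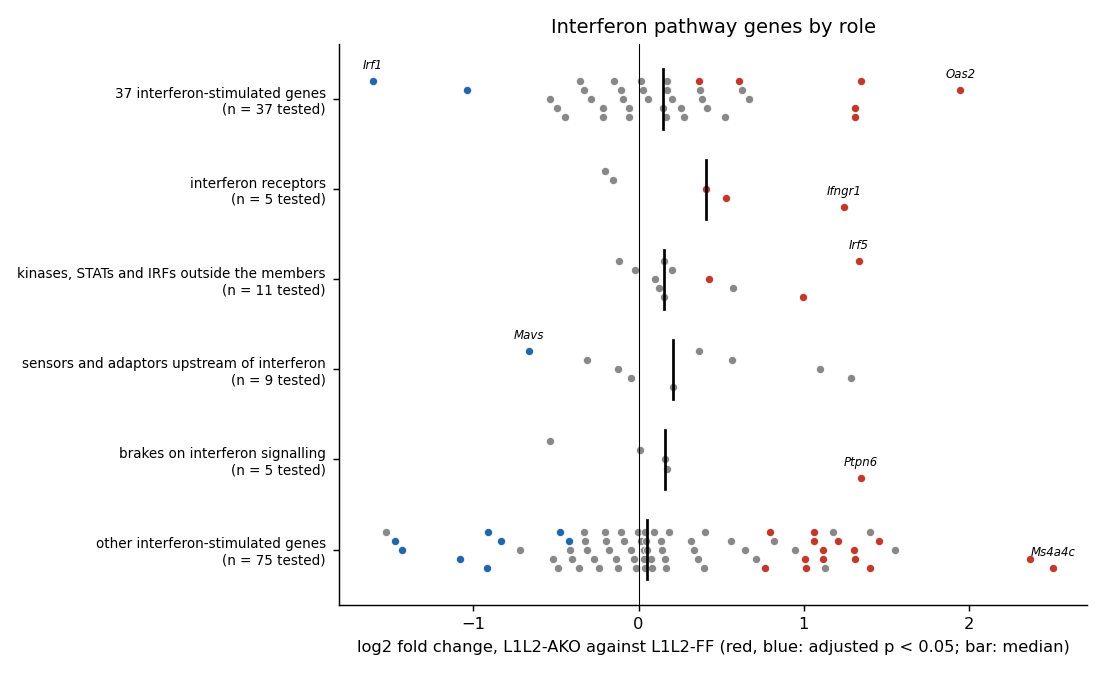
Fitted log2 fold change (x axis) of the 37 genes and of 105 other interferon pathway genes tested, by role (y axis), with a bar at the median of each role. Coloured points passed the threshold; changes in both directions occur among the 37 genes and among the other interferon-stimulated genes, where 15 of 75 rose and 8 fell.

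Downstream of the receptors, 3 of 11 kinases, STATs and IRFs outside the 37 genes rose and none fell. Of 9 sensors and adaptors upstream of interferon, 1 fell and none rose. Of 5 brakes on interferon signalling, 1 rose. Among other pathway genes that passed the threshold and had a mean log2 CPM of 1 or more, the largest rises were those of *Slfn2*, a growth-regulating schlafen gene (log2 fold change 1.46, edgeR adjusted p = 0.00361), *Epsti1* (log2 fold change 1.40, edgeR adjusted p = 0.0205) and *Ptpn6*, which codes for the phosphatase SHP-1 of blood cells (log2 fold change 1.35, edgeR adjusted p = 0.00473). The largest falls among them were those of *Cxcl10*, *Cd274* and *Cxcl9*. *Cxcl10*, a chemokine gene that draws T cells, was at 51.0, 33.4 and 25.6 CPM in L1L2-FF and at 14.8, 13.0 and 11.8 CPM in L1L2-AKO (log2 fold change -1.47, edgeR adjusted p = 0.00611). *Cd274*, which codes for PD-L1, was at 27.8, 22.2 and 34.0 CPM in L1L2-FF and at 12.3, 9.52 and 9.25 CPM in L1L2-AKO (log2 fold change -1.43, edgeR adjusted p = 0.00268). *Cxcl9*, a chemokine gene of the same receptor as *Cxcl10*, also fell (log2 fold change -1.08, edgeR adjusted p = 0.0295). These 3 genes and *Irf1* fell while the chains of the IFN-γ receptor rose, and whether these changes are linked was not tested. The 3 were taken as the largest falls. Among all other interferon-stimulated genes tested, 15 of 75 rose and 8 fell (median log2 fold change 0.05).

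The cell types that could supply interferon-stimulated transcripts were measured with the same fit. Macrophage markers rose as given above, with log2 fold changes from -0.03 (*Mertk*, not past the threshold) to 2.71 (*Cx3cr1*). Of the markers of T and NK cells (11 tested), B cells (6), neutrophils (8), plasmacytoid dendritic cells (6) and endothelial cells (10), 0 passed edgeR's threshold. At an unadjusted edgeR p under 0.05 these numbers were 3, 1, 2, 2 and 2, against 4828 of all 15674 genes tested. DESeq2 called 1 gene each of the T and NK cell, neutrophil and endothelial lists, while limma-voom called 0. The median log2 fold change was 0.83 for T and NK cells, 0.52 for B cells and -0.35 for neutrophils. It was 0.65 for plasmacytoid dendritic cells and -0.48 for endothelial cells, of whose 10 markers 9 were fitted lower. The part of these cells in the changes of the members was not tested. The summed level of the T and NK cell markers was 22.4 to 38.9 CPM in L1L2-FF and 26.8 to 42.0 CPM in L1L2-AKO. Plasmacytoid dendritic cells make much of the type I interferon in infection, and *Siglech*, their defining marker, was at 0.383 to 0.649 CPM in L1L2-FF and 0.594 to 0.825 CPM in L1L2-AKO. Their list summed to 203 to 260 CPM in L1L2-FF and 176 to 255 CPM in L1L2-AKO, most of it from the widely expressed gene *Tcf4*. The endothelial sum was 2060 to 2750 CPM in L1L2-FF and 1190 to 2580 CPM in L1L2-AKO, lowest in L1L2-AKO replicate 3. Schwann cell markers fell for 4 of 8 genes, progenitor and fibroblast markers for 2 of 8 and adipocyte markers for 5 of 13. Since 17 of 18 macrophage markers and the 6 members that rose moved in the same direction, and macrophages express interferon-stimulated genes, adipocyte and macrophage transcripts of these genes cannot be told apart in these libraries.

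**Figure D5:**
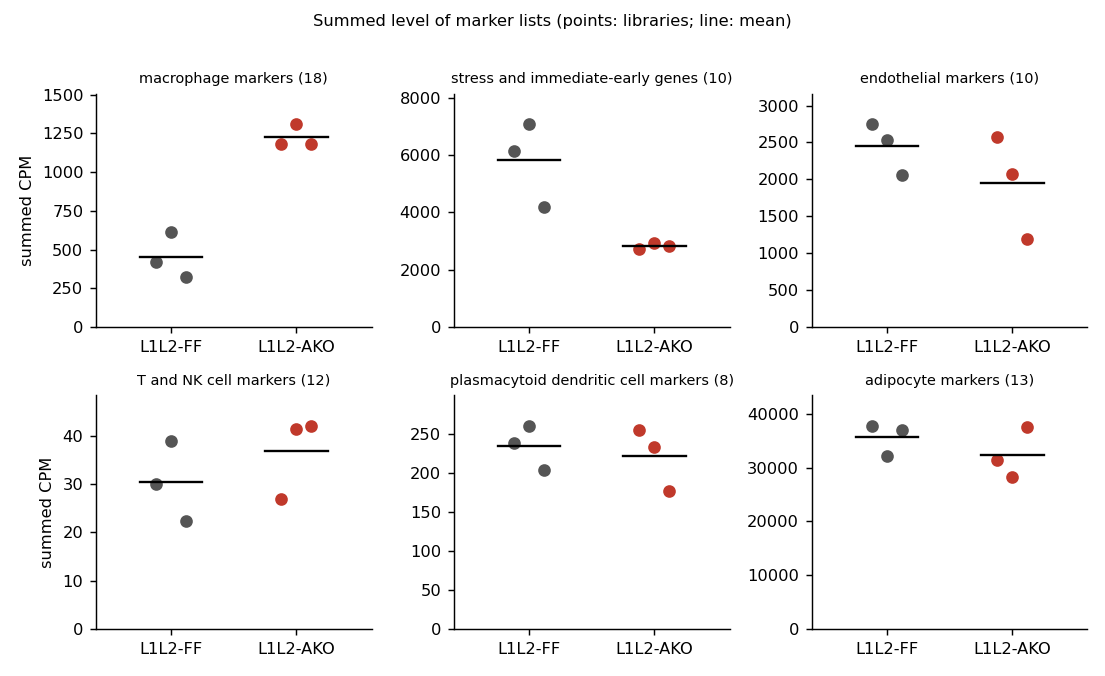
Summed TMM-normalized CPM (y axis, starting at 0) of 6 marker lists in each library (points), with the mean of each genotype as a line and the number of genes in brackets. Macrophage markers (321 to 615 against 1180 to 1310 CPM) and the immediate-early and stress genes (4190 to 7080 against 2720 to 2930 CPM) separate the genotypes, and the sums of the other 4 lists overlap.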

How the data were processed

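Per the labels and the methods, 6 libraries were sequenced from both ends on a BGISEQ-500. Alignment by the authors was to mm10, with HISAT2 2.1.0, followed by SAMtools and StringTie 1.3.5. For each gene symbol the deposited value is a raw count; the counting program, annotation and strand setting are not given in the sources used here. There, 8338 values were 2 and 4447 were 1, so both ends of a fragment may be counted. The member and pathway lists and the rule for named genes were chosen with earlier results of these data known. Every member is accounted for. Values per library are given for members past the threshold, the 3 most abundant per exon length and those that stood out in their role. Outside the list, the rule named the receptors, the ligands and the 3 largest changes past the threshold in each direction (average log2 CPM at least 1). Several of these are given by fitted change alone, and most ligands only as a number of genes. *Stat2*, *Dhx58*, *Oasl1*, *Dtx3l* and *Gbp7* were added after their values were seen. *Isg15* was also given per library outside the rule, and *Oas3*, *Oas1g*, *Oas1b* and *Mavs* were named outside it as well. The rule also drew 1 gene that is not reported here.

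The tests used edgeR 4.0.16 in R 4.3.3 (filterByExpr, minimum count 10 and minimum total count 15, which left 15674 of 37384 genes; TMM; quasi-likelihood test; Benjamini-Hochberg adjustment), fitted on the whole table and checked on simulated counts. An SE is the size of the fitted log2 change over the root of the F statistic. Alternatives used limma 3.58.1 and DESeq2 1.42.0. A permutation test of 3 against 3 libraries cannot give a two-sided p under 0.1. Positions, exon lengths, overlaps and shared 50-base stretches came from GENCODE M21 (mm10). Replicates of a genotype differed by more than sampling noise.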

Additional observations from a re-analysis of the deposited data

How the results depend on the processing

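*Irf1*, *Zbp1*, *Ifit2* and *Oas2* passed the threshold in all 10 other settings and in all 6 fits with a library left out. *Ifit1* and *Parp9* were lost with library size alone, upper-quartile normalization, no filter on low counts, a 2-fold threshold and the replicate block, *Oas1a* with library size alone, and *Ifi27l2a* with DESeq2 size factors, limma-voom and the replicate block. The members called lower were thus 1 with DESeq2 size factors, with limma-voom and with the replicate block, and those called higher 3 with library size alone. A 2-fold threshold left 1366 of all genes called in either direction (839 higher and 527 lower). It left 3 of the other pathway genes called lower. With each library left out, members higher ranged from 3 to 7, members lower from 1 to 2, all genes called from 1281 (without L1L2-AKO replicate 2) to 2845 (without L1L2-FF replicate 2), other pathway genes higher from 8 to 26 and lower from 4 to 9. Without L1L2-FF replicate 2, *Stat2* and *Trim30a* passed and *Parp9* did not. Members near 0 changed sign: *Irf7* at -0.0045 with library size alone and -0.019 with upper-quartile normalization, *Isg15* at -0.0067 with upper-quartile normalization, and, with each library left out, *Irf7* from -0.075 to 0.096, *Irf9* from -0.043 to 0.13, *Isg15* from -0.077 to 0.18, *Usp18* from -0.16 to 0.036 and *Rtp4* from -0.14 to 0.052. The median of the members stayed between 0.04 and 0.18. The causes of these changes were not tested. The labels do not say whether replicate numbers mark a litter or day. Deviations correlated at 0.188, 0.255 and -0.0544 between libraries of the same number, and at -0.324 to 0.211 between the others. These values do not settle whether the numbers pair the samples. The replicate block called 2514 genes. *Lats2* lost its call in 4 of 6 fits with a library left out and under the 2-fold threshold.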

Other observations

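Some MHC class I genes outside the list fell, and they were chosen after their values were seen. *H2-K1*, a classical MHC class I heavy chain, was at 594, 635 and 535 CPM in L1L2-FF and at 281, 310 and 342 CPM in the libraries labelled L1L2-AKO (log2 fold change -0.92, edgeR adjusted p = 0.00433). *H2-D1*, the other classical heavy chain measured, had a log2 fold change of -0.91 (edgeR adjusted p = 0.00497). *Tap2*, the partner of *Tap1* in the peptide transporter, fell by 0.47 on the log2 scale (edgeR adjusted p = 0.0264). *Tapbp*, which codes for tapasin, rose (log2 fold change 0.79, edgeR adjusted p = 0.0326). *B2m*, *Psmb10*, *Psme1*, *Psme2* and *Nlrc5* did not pass the threshold, with log2 fold changes of -0.52, -0.27, -0.14, -0.33 and -0.18.

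Of the 3 OAS genes tested outside the list, *Oas3* and *Oas1g* rose, and *Oas1b* did not pass the threshold (log2 fold change -0.05, edgeR adjusted p = 0.943). *Oas3* was at 0.702, 0.711 and 0.580 CPM in L1L2-FF and at 1.66, 1.46 and 1.22 CPM in L1L2-AKO (log2 fold change 1.12, edgeR adjusted p = 0.0436). *Oas1g*, the near copy of *Oas1a*, had a log2 fold change of 2.37 (edgeR adjusted p = 0.0136), and its reads and those of *Oas1a* may be split by the counting. *Mavs*, the adaptor of the RIG-I-like receptors, fell by 0.66 on the log2 scale (edgeR adjusted p = 0.00988).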
